A study of Mus musculus with 9 samples.

Results

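The Olfr genes from Olfr1507 to Olfr1512 are odorant receptor (OR) genes that stand in a row on mouse chromosome 14, in the MOR28 cluster beside the H enhancer. All 6 genes of this name range were taken from the count tables by symbol, out of 24421 genes in all and 1125 Olfr genes, and none was chosen by its level. All 6 passed the filter on low counts, as did 1088 of the Olfr genes. RNA was sequenced from the whole main olfactory epithelium (MOE), where the olfactory sensory neurons (OSNs) of the nose lie, in mice at postnatal day 14. The labels give the strain as C57BL/6, the edited zygotes were C57BL/6J, and the study's reporting form describes its mouse lines as of mixed C57BL/6J and 129 background. The mice carried 2 intact alleles of TAAR enhancer 2 (WT), 1 deleted allele (het) or 2 deleted alleles (homo), with 3 libraries per genotype. The deletion was made by CRISPR-Cas9 editing in 1 mouse line, the mice were littermates of both sexes, and the labels list no other allele or treatment. Total counts ranged from 20527992 to 32262005 per library.

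Each mature OSN expresses a single OR allele, chosen from a repertoire spread over many chromosomes, and enhancers that bind the transcription factors Lhx2 and Ebf take part in this choice. The H enhancer was the first such element described. It lies upstream of MOR28, and mice without it lose expression of the nearest receptor genes of the cluster, MOR28, MOR10 and MOR83. The paper's introduction counts more OR genes than these as decreased by the H knockout, without naming them. TAAR enhancer 2 is the corresponding kind of element in the cluster of the trace amine-associated receptor (Taar) genes on another chromosome. The chromosome 14 genes therefore serve as a receptor cluster whose own enhancer is intact in every mouse compared here. The coordinates of the H enhancer were not used here.

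The coding sequences divide the run into close pairs, which bears on how far the counts of single genes can be told apart. The first 60 coding bases of each gene, read from the GENCODE M21 annotation and transcripts of GRCm38, are given here, and capitals mark the bases that differ within a close pair. Olfr1513, which the annotation places next to Olfr1512 at the far end of the run, is included as the partner of Olfr1512.
Olfr1507: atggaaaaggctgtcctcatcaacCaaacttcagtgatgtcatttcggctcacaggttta
Olfr1508: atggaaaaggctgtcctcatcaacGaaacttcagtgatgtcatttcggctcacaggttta
Olfr1509: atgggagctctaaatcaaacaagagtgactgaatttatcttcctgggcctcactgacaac
Olfr1510: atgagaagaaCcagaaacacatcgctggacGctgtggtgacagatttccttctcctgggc
Olfr1511: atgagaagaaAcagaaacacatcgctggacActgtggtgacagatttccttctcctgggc
Olfr1512: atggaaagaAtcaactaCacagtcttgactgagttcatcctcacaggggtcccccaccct
Olfr1513: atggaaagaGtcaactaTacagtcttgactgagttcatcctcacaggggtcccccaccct
In this window Olfr1507 and Olfr1508 differ at 1 base, Olfr1510 and Olfr1511 at 2 bases, and Olfr1512 and Olfr1513 at 2 bases. Over the whole coding sequence the identity is 92.1% between Olfr1507 and Olfr1508, 97.3% between Olfr1510 and Olfr1511, and 96.0% between Olfr1512 and Olfr1513. Olfr1509 has no close partner, with 65.2% identity to Olfr1507 and 65.4% to Olfr1508. RefSeq gives Mor28 as a synonym of Olfr1507, Mor10 of Olfr1508 and Mor83 of Olfr1509, which belong to the MOR244 family, while Olfr1510 to Olfr1513 belong to the MOR223 family.

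In GRCm38, which is the build the files use (mm10), Olfr1507 spans chr14:52488791-52495749 on the minus strand. Olfr1508 follows at chr14:52458829-52467495 on the minus strand, and Olfr1509 at chr14:52442990-52452574, the only one of the 6 genes on the plus strand. Olfr1510 (chr14:52409131-52414373), Olfr1511 (chr14:52389794-52397379) and Olfr1512 (chr14:52371332-52379168) are again on the minus strand. Counted from the start of Olfr1507, the starts of the next 5 genes lie 28.3, 52.8, 81.4, 98.4 and 116.6 kb away, and that of Olfr1513 lies 139.3 kb away. All 7 genes are annotated as protein coding. Of the windows of 50 bases in the annotated transcripts, all occur in no other gene for Olfr1509, as do 97.0% for Olfr1508 and 93.9% for Olfr1507. The unique share is 84.3% for Olfr1512, 74.7% for Olfr1510 and 65.5% for Olfr1511. The windows that Olfr1510 and Olfr1511 share, 489 in number, are shared with each other, so a stretch of 50 bases from these sequences does not distinguish the 2 genes. How the authors' counting treated such reads is not given in the sources used here.

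The 6 genes were expressed at very unequal levels. Olfr1507 had rank 2 of 1088 Olfr genes by mean level in CPM (counts scaled by effective library size) and held 1.45% of all Olfr counts. Olfr1508 had rank 16, Olfr1509 rank 103, Olfr1511 rank 158, Olfr1510 rank 399 and Olfr1512 rank 678, and the median Olfr gene had 2.59 CPM. The mean levels over the 9 libraries were 56.4 CPM for Olfr1507, 14.9 for Olfr1508, 7.03 for Olfr1509, 5.69 for Olfr1511, 3.24 for Olfr1510 and 1.94 for Olfr1512. The pooled shares of all Olfr counts were 0.393% for Olfr1508, 0.187% for Olfr1509, 0.151% for Olfr1511, 0.0831% for Olfr1510 and 0.0503% for Olfr1512.

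To compare the genes with each other, levels were divided by length. Per kb of annotated exonic length the mean level was 19.6 CPM per kb for Olfr1507, 3.87 for Olfr1511, 2.73 for Olfr1509, 2.57 for Olfr1508, 1.63 for Olfr1510 and 0.930 for Olfr1512. Within libraries, 14 of the 15 pairs of genes differed (exact two-sided sign-flip test over 9 libraries, adjusted over 15 pairs, adjusted p at most 0.0209). The neighbours in this order that did not differ beyond their spread were Olfr1508 and Olfr1509, with a mean log2 difference of −0.061 (SD 0.23) and an adjusted p of 0.43 by the same exact test. Olfr1507 was the highest of the 6 in all 9 libraries, and its smallest p of 0.003906 is the smallest that the exact test allows.

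The order below Olfr1507 depended on the length used. Per kb of coding sequence, which is similar in all 6 genes (924 to 954 bases), the mean level was 60.1 CPM per kb for Olfr1507, 16.03 for Olfr1508, 7.61 for Olfr1509, 5.96 for Olfr1511, 3.40 for Olfr1510 and 2.06 for Olfr1512. Olfr1508 thereby moved from rank 4 to rank 2 and Olfr1511 from rank 2 to rank 4. On this scale Olfr1509 and Olfr1511 were the only pair of the 15 that did not differ (mean log2 difference 0.32, SD 0.44, higher in 8 of 9 libraries, exact adjusted p 0.0586). The annotated exonic length of Olfr1508, 5791 bases, is the longest of the 6, against 2877 for Olfr1507 and 1468 for Olfr1511. Which of these bases the authors counted over is not given in the sources used here.

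**Figure D1:**
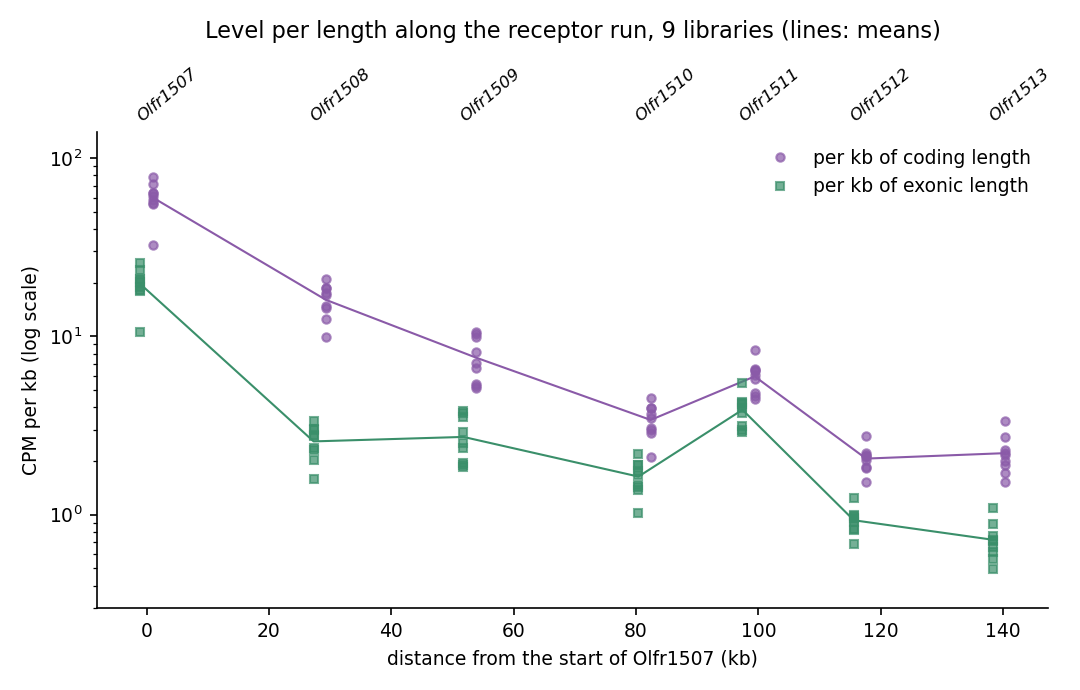
Level of each receptor gene (y axis, CPM per kb, log scale) against the distance of its start from that of Olfr1507 (x axis, kb); each point is 1 of 9 libraries, lines join the means, and colours give the length used. Olfr1507 lies above all other genes on both scales, and the level does not fall evenly with distance, since Olfr1511 at 98.4 kb lies above Olfr1510 at 81.4 kb.

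The level of the genes per length was therefore highest at the Olfr1507 end and lowest for Olfr1512, but it was not ordered by distance throughout. Olfr1511 was above Olfr1510, its nearer neighbour, in 9 of 9 libraries on both scales (exact p 0.003906 each). These are the close pair that share the most sequence. Olfr1513, beyond Olfr1512, had a mean of 2.08 CPM and rank 645 of 1088. Per kb of exonic length Olfr1513 had 0.723 CPM, where Olfr1512 had 0.930. Per kb of coding sequence Olfr1513 had 2.21 CPM, where Olfr1512 had 2.06.

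The question of the genotype comparison was whether loss of TAAR enhancer 2 changed receptors outside the Taar cluster, for which the chromosome 14 run is a control. Taar6, which adjoins the deleted element, fell by 3.28 on the log2 scale in homo against WT (SE 0.18, edgeR adjusted p 0.000322). In the same fit none of the 6 chromosome 14 genes passed the threshold of an adjusted p under 0.05 and a fold change over 1.5, where 0.0202% of the 19775 genes tested did. Those were Taar3, Taar6, Taar7a and Taar9. At an unadjusted p under 0.05 the count of the 6 genes was again 0, against 3.45% of all genes tested. DESeq2 and limma-voom also called 0 of the 6.

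Olfr1507 (MOR28) had 1224, 1700 and 826 raw counts in WT replicates 1, 2 and 3, or 60.04, 52.6 and 30.4 CPM. The het libraries had 67.4, 54.7 and 57.9 CPM, and the homo libraries had 73.9, 59.6 and 51.6 CPM. The WT library of replicate 3 was the lowest of all 9, and the ranges of the 3 genotypes overlapped. The log2 fold change was 0.37 in homo against WT (SE 0.23, 95% interval −0.15 to 0.90, edgeR adjusted p 1), a fold of 1.29 with an interval of 0.899 to 1.86. It was 0.33 in het against WT (SE 0.23) and 0.040 in homo against het (SE 0.23). Single WT libraries moved these values both ways. Without WT replicate 3 homo against WT was 0.12 and het against WT 0.085, and without WT replicate 1 they were 0.58 and 0.54. Without homo replicate 1 the homo value was 0.22.

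Olfr1508 (MOR10), the close copy of Olfr1507, had 11.7, 15.9 and 9.21 CPM in WT, 13.8, 17.3 and 17.4 in het, and 13.3, 19.4 and 16.2 in homo. The lowest value was again that of WT replicate 3, and the genotypes overlapped. The log2 fold change in homo against WT was 0.41 (SE 0.22, 95% interval −0.081 to 0.90, edgeR p 0.0921 before adjustment and 1 after). Leaving out WT replicate 3 gave 0.23, leaving out homo replicate 2 gave 0.26, and leaving out WT replicate 2 gave 0.64. In het against WT it was 0.40 (SE 0.22), with 0.22 without WT replicate 3 and 0.63 without WT replicate 2.

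Olfr1509 (MOR83), the receptor with no close copy and thus the least ambiguous count, had 5.003, 7.51 and 4.75 CPM in WT, 6.10, 9.52 and 6.54 in het, and 4.90, 9.83 and 9.11 in homo. Replicate 2 was the highest in each genotype, and the genotypes overlapped. The log2 fold change in homo against WT was 0.46 (SE 0.30, 95% interval −0.22 to 1.15, edgeR adjusted p 1). It ranged from 0.27 without homo replicate 2 to 0.71 without homo replicate 1, and was 0.70 without WT replicate 2. In het against WT it was 0.36 (SE 0.30), with 0.14 without het replicate 2, 0.22 without WT replicate 3 and 0.60 without WT replicate 2.

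The MOR223 genes at the other end of the run, Olfr1510, Olfr1511 and Olfr1512, differed in sign among themselves, and none passed the test. Olfr1510 had 4.32, 2.85 and 3.50 CPM in WT, 3.78, 2.72 and 2.02 in het, and 3.76, 2.91 and 3.31 in homo, with a log2 fold change of −0.093 in homo against WT (SE 0.26) and −0.32 in het against WT (SE 0.27). Its close copy Olfr1511 had 4.61, 5.47 and 7.997 CPM in WT, 4.399, 6.12 and 5.82 in het, and 4.26, 6.21 and 6.28 in homo, with log2 fold changes of −0.11 (SE 0.25) and −0.15 (SE 0.25). WT replicate 3 was the highest library for Olfr1511, whereas it was the lowest for Olfr1507. Without it the Olfr1511 values changed sign, to 0.14 in homo and 0.10 in het. Olfr1512 had 1.42, 1.73 and 1.99 CPM in WT, 2.03, 2.08 and 1.90 in het, and 2.58, 1.97 and 1.71 in homo, from 29 to 57 raw counts per library. Its log2 fold change was 0.28 in homo against WT (SE 0.24) and 0.22 in het against WT (SE 0.24). For Olfr1513 the values were −0.32 (SE 0.29) and −0.32 (SE 0.29), so the close pair of Olfr1512 and Olfr1513 had opposite signs, neither past the test.

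**Figure D2:**
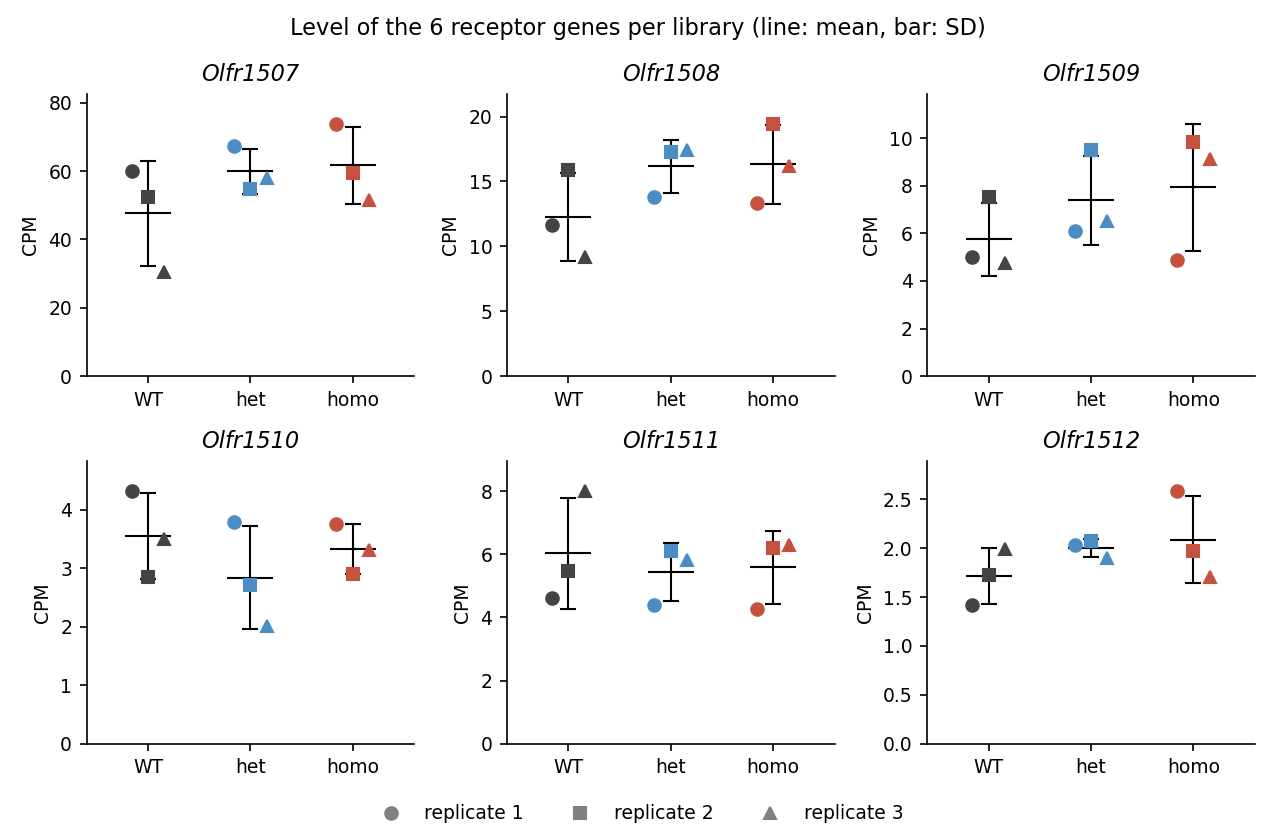
Level of each of the 6 receptor genes (y axes, CPM, from 0) in the 9 libraries by genotype; symbols give the replicate number, horizontal lines the means and vertical bars the SD of 3 libraries. The genotypes overlap for every gene, and WT replicate 3 is the lowest library for Olfr1507 (30.4 CPM) and the highest for Olfr1511 (7.997 CPM).

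The count of genes whose CPM ranges did not overlap was 0 of 6 in homo against WT, where 5.68% of all genes tested did not overlap, 0 of 6 in het against WT (3.95%) and 0 of 6 in homo against het (4.15%). Against het, the homo log2 fold changes ran from 0.015 for Olfr1508 to 0.23 for Olfr1510, and 0 of 6 passed (0.00506% of all genes). All 6 of these small values were above 0, as were 51.4% of all genes and 67% of the Olfr genes, and 0 of 6 had an unadjusted p under 0.05 (0.662% of all genes). In het against WT 0 of 6 passed (0% of all genes), and 1.28% of all genes had an unadjusted p under 0.05. A test for any difference between the genotypes gave edgeR p-values from 0.165 to 0.836 before adjustment for the 6 genes, and 1 after, where 1.39% of all genes were under 0.05 before adjustment. The comparisons share libraries, so their values are not independent of each other. The edgeR p-values weigh each difference against the spread between libraries within genotypes, estimated together over all 9 libraries. Genotype is the only term of this fit, so that spread is not only the spread between mice. It also holds the difference between replicate number 1 and the other numbers, for which 8.95% of all genes were called.

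The intervals limit what these libraries can show. They come from the fit on genotype alone, and no interval from a fit that accounts for replicate number is given here. A batch term for replicate number 1 gave homo against WT values from −0.11 for Olfr1511 to 0.42 for Olfr1509. The smallest edgeR adjusted p of the 6 genes in that fit was 0.705. For homo against WT the upper ends of the 95% intervals were folds of 1.86 for Olfr1507, 1.87 for Olfr1508, 2.22 for Olfr1509, 1.42 for Olfr1510, 1.38 for Olfr1511 and 1.75 for Olfr1512. The lower ends were folds of 0.899, 0.945, 0.857, 0.621, 0.624 and 0.839 in the same order. The fold of Taar6 was 0.103, with an interval from 0.0779 to 0.136, and it overlapped none of these intervals. The difference from Taar6 was tested as the log2 ratio of each gene to Taar6 within a library. From WT to homo this ratio rose from 2.82 to 6.53 for Olfr1507, a difference of 3.71, and the differences for the 6 genes lay between 3.20 and 3.73. The exact two-sided permutation p was 0.1 for each, which is the smallest that 3 against 3 libraries allow. Since Taar6 itself had a log2 fold change of −3.28, the ratio would rise even for a gene without change. It therefore compares the genes with Taar6 and is no test of change in the 6 genes.

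**Figure D3:**
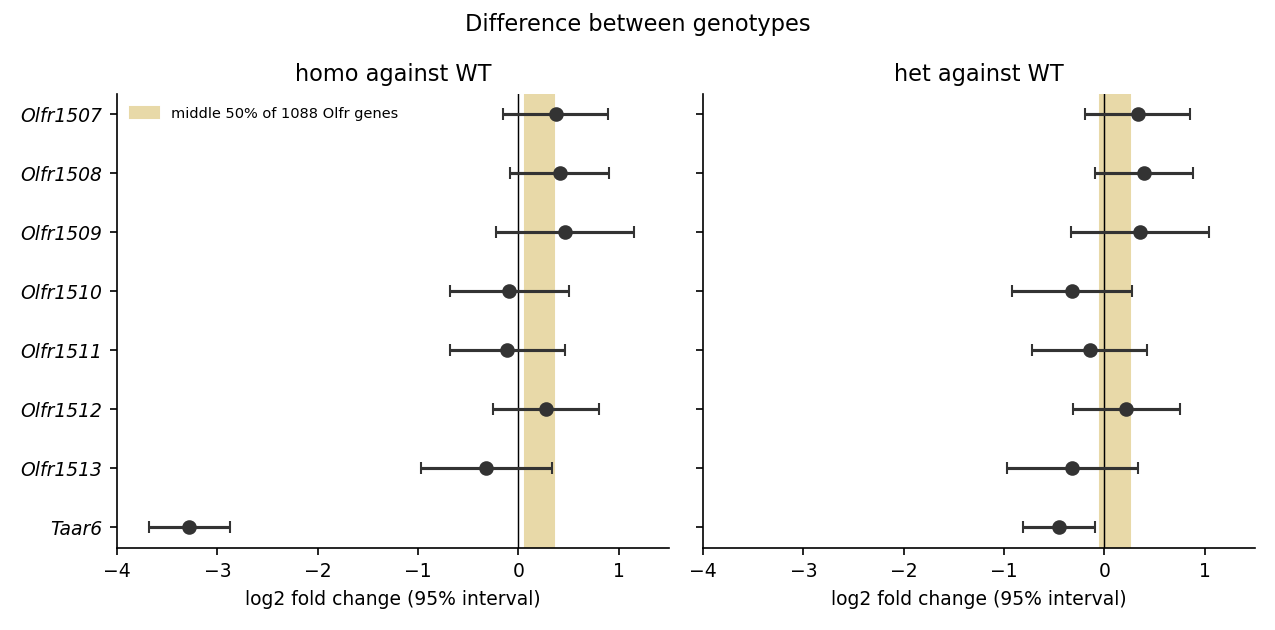
Log2 fold change (x axes) of the 6 receptor genes, Olfr1513 and Taar6 in homo against WT (left) and het against WT (right); points are edgeR estimates from 9 libraries, bars are 95% intervals, and the band holds the middle 50% of the 1088 Olfr genes tested. The intervals of all chromosome 14 genes include 0 in both panels, while Taar6 lies at −3.28 in homo.

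The values of the 6 genes also stood beside a general shift of the Olfr genes. Their median log2 fold change was 0.32 in homo against WT, where the median was 0.21 over the 1088 Olfr genes and 0.0040 over all genes tested. In this comparison 4 of the 6 genes were higher, as were 82.4% of the Olfr genes and 51.2% of all genes. In het against WT the medians were 0.28 for the 6 genes and 0.12 for the Olfr genes, and 4 of the 6 genes, 70% of the Olfr genes and 47.7% of all genes were higher. When libraries were scaled to their summed Olfr counts, the median of all genes moved to −0.18 in homo against WT and −0.13 in het against WT, and 51.7% of the Olfr genes were higher in homo. On that scale Olfr1507 was at 0.21, Olfr1508 at 0.22, Olfr1509 at 0.26, Olfr1510 at −0.28, Olfr1511 at −0.32 and Olfr1512 at 0.11 in homo against WT, with no call. Beside these values, all 10 mature OSN markers had log2 fold changes above 0 in homo against WT (median 0.084), as did 5 of 5 immature OSN markers (median 0.13) and 4 of 5 sustentacular markers (median 0.22). Of 4 secretory gland markers 0 were above 0 (median −0.79), and of 4 lymphocyte markers 1 was (median −1.23). Of 6 basal stem and progenitor markers 2 were above 0 (median −0.13), and of 4 respiratory ciliated markers 1 was (median −0.14). Of 4 ventral zone markers 3 were above 0 (median 0.046), and of 2 dorsal zone markers 2 were (median 0.11). The 1 blood marker tested was at 0.29. No marker was called, and their part in the Olfr values was not tested. From RNA counts of whole tissue, fewer cells of a type and less RNA per cell cannot be told apart. For Olfr1507 the paper also counted cells in this line by in situ hybridization, and it reported no significant change in homo.

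Summed over the 6 genes, the WT libraries had 87.1, 86.0 and 57.9 CPM, the het libraries 97.5, 92.4 and 91.6 CPM, and the homo libraries 103, 99.9 and 88.2 CPM. All 6 libraries with a deleted allele lay above all 3 WT libraries in this sum, the nearest being WT replicate 1 at 87.1 and homo replicate 3 at 88.2 CPM. No test was made of this sum, and how often sums of other Olfr genes separate in this way was not counted. Olfr1507 alone held 52.6% to 71.9% of the sum in each library. Olfr1507 to Olfr1509 together were at 131% of WT in homo and 127% in het. Olfr1510 to Olfr1512 together were at 97.3% and 91.1%, so the sum does not describe the whole run. The WT mean was 77.0 ± 16.6 CPM, the het mean 93.8 ± 3.22 CPM and the homo mean 96.9 ± 7.72 CPM (SD, n = 3 each). The homo mean was 126% of WT, and 112% without WT replicate 3, and the het mean was 122% and 108%. As a share of all Olfr counts the 6 genes held 2.62%, 2.23% and 1.69% in WT, 2.76%, 2.37% and 2.23% in het, and 2.92%, 2.26% and 2.12% in homo, and on this scale the genotypes overlapped. Compared by replicate number, the share was higher in het than in WT in 3 of 3 numbers, and higher in homo than in WT in 3 of 3. By the pairing check described below, the numbers pair het with WT but not homo with WT. The count for homo therefore rests on matches that the check did not bear out. In CPM, Olfr1507, Olfr1508 and Olfr1509 were each higher in het than in the WT library of the same number in 3 of 3 numbers. Olfr1510 was lower in het in 3 of 3 numbers, and Olfr1511 and Olfr1512 went both ways. How many of all Olfr genes kept the same direction in every number was not counted, so these counts have no background. By log2 fold change, 70% of the Olfr genes tested were higher in het than in WT. WT replicate 3 was the lowest library for Olfr1507, Olfr1508 and Olfr1509 alike. With the replicate number as a block, het against WT was 0.37 for Olfr1507, 0.42 for Olfr1508 and 0.36 for Olfr1509 (edgeR adjusted p 0.946 each).

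The 14 olfactory Taar genes together had 34.6, 41.6 and 44.8 CPM in WT, 32.0, 35.2 and 38.3 in het, and 17.6, 22.7 and 21.0 in homo. The ratio of the chromosome 14 sum to the Taar sum was 2.51, 2.07 and 1.29 in WT, 3.04, 2.63 and 2.39 in het, and 5.84, 4.41 and 4.21 in homo. The 3 homo libraries lay above all others in this ratio. Both sums enter this ratio, and the Taar sum alone was lower in all 3 homo libraries than in every other library.

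**Figure D4:**
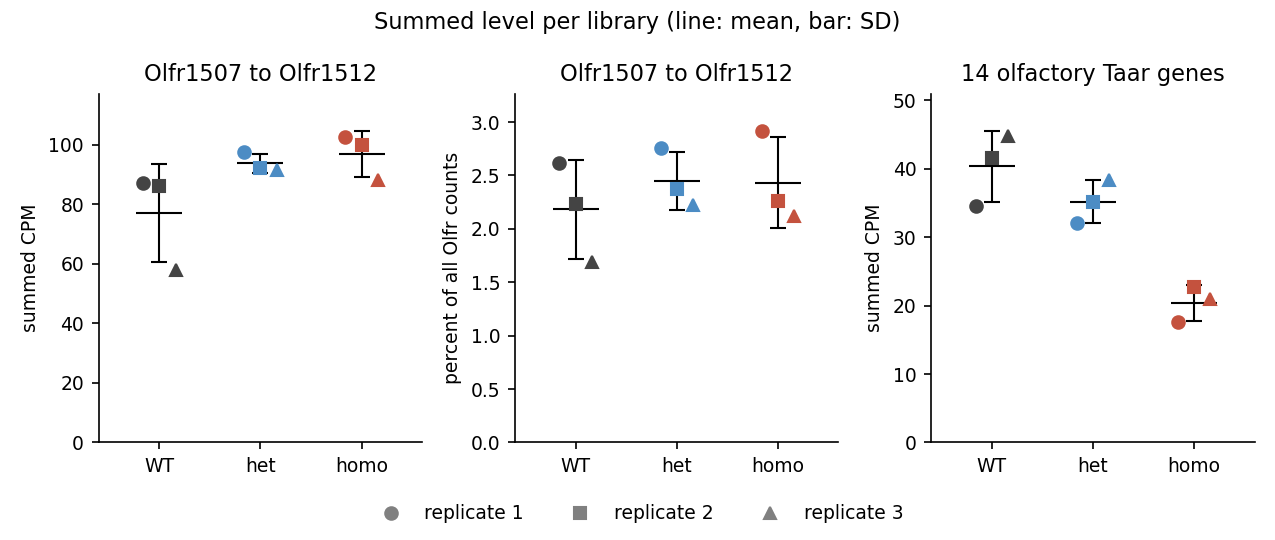
Summed level per library (y axes, from 0) of the 6 chromosome 14 genes in CPM (left) and as a percent of all Olfr counts (middle), and of the 14 olfactory Taar genes in CPM (right); symbols give the replicate number, lines the means and bars the SD of 3 libraries. The homo libraries are the lowest for the Taar sum, at 17.6 to 22.7 CPM, and overlap WT for the chromosome 14 share.

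WT replicate 3, which was low for Olfr1507 and Olfr1508, stood apart in marker genes as well. The summed level of 4 lymphocyte markers (Ptprc, Cd79a, Cd3e and Cd3d), listed because the T cell receptor alpha locus lies beside the run, was 122 CPM in this library and 16.04 to 52.7 CPM in the other 8. Most of it was Ptprc, a surface protein of all white blood cells, with up to 109 CPM, while Cd3d, a part of the T cell receptor complex, ranged from 0 to 1.33 CPM. The 5 sustentacular cell markers, from the supporting cells of the epithelium, summed to 2367 CPM in WT replicate 3 and to between 4494 and 5435 CPM in the others. The 5 markers of immature OSNs, which include Gap43, were also lowest there, at 1113 CPM against 1313 to 1582. The 4 genes listed for the ventral zone, where MOR28 is expressed, were at 452 CPM against 525 to 663. The 10 markers of mature OSNs, such as Omp, were not lowest there, with 7221 CPM in a range of 7030 to 8114. None of the 45 markers that passed the filter on low counts was called in homo or in het against WT. The part of these differences in the Olfr1507 values was not tested.

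Within the close pairs, the libraries differed by replicate number. The ratio of Olfr1507 to Olfr1508 counts was 5.14, 4.90 and 5.54 in the libraries of replicate number 1 of WT, het and homo. It was between 3.07 and 3.32 in the libraries numbered 2 and 3. The 2 sets of libraries did not overlap, and each contained all 3 genotypes. The mean log2 ratio was higher by 0.69 in number 1 (exact two-sided permutation test, 3 against 6 libraries, p 0.0238, the smallest it allows for a full separation, adjusted p 0.0357 over 3 pairs).

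The ratio of Olfr1511 to Olfr1510 separated the same libraries. It was 1.07, 1.16 and 1.13 in replicate number 1 and between 1.90 and 2.88 in the others, a mean log2 difference of −0.98 (exact p 0.0238, adjusted p 0.0357). For Olfr1512 and Olfr1513 the ratio was 0.453 to 1.27 in replicate number 1 and 0.821 to 1.33 in the others, with overlap (exact p 0.262, adjusted p 0.262). These ratios were examined because the replicate 1 libraries were known to lie apart from the rest, with 8.95% of all genes called between them and numbers 2 and 3 once genotype was accounted for. The ratios and the split were chosen after seeing the data. Their p-values therefore describe the separation and are not independent evidence of it. The labels do not say what a replicate number stands for.

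**Figure D5:**
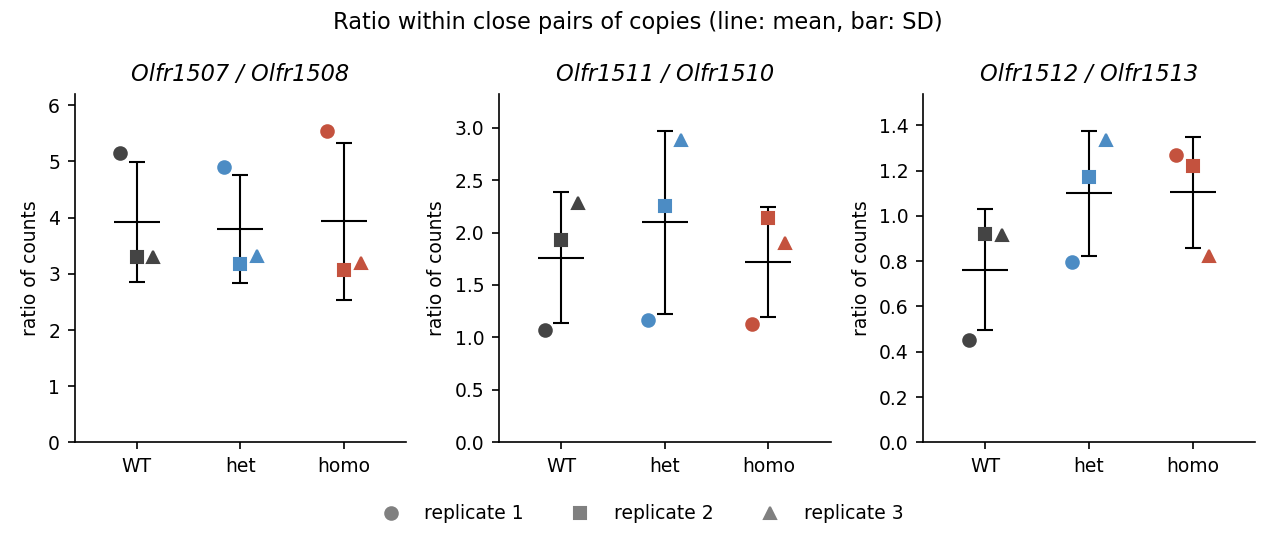
Ratio of counts between the genes of each close pair (y axes, from 0) in the 9 libraries by genotype; symbols give the replicate number, lines the means and bars the SD of 3 libraries. Replicate 1 (circles) is highest for Olfr1507 to Olfr1508, at 4.90 to 5.54, and lowest for Olfr1511 to Olfr1510, at 1.07 to 1.16, in every genotype.

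Gene by gene, replicate number 1 was higher than numbers 2 and 3 for Olfr1507 (log2 difference 0.40, SE 0.15, edgeR adjusted p 0.0676) and Olfr1510 (0.47, SE 0.16, adjusted p 0.0515), neither past the test. Olfr1511 was lower by a log2 difference of −0.51 (SE 0.14, edgeR adjusted p 0.0242), which did not reach the fold limit. Olfr1508 stood at −0.29 (SE 0.16), Olfr1509 at −0.54 (SE 0.20, edgeR adjusted p 0.0732) and Olfr1512 at 0.068 (SE 0.20), so that 0 of the 6 genes were called. Between the same libraries, the summed level of 6 markers of basal stem and progenitor cells was 234 to 289 CPM in number 1 and 135 to 146 CPM in the others. The 7 listed enhancer factors summed to 3026 to 3205 CPM in number 1 and to 2363 to 2700 CPM in the others. The part of these in the ratios was not tested.

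Among the libraries of replicate number 1, of which each genotype has 1, the summed level of the 6 genes was 118% of WT in homo and 112% in het. Within numbers 2 and 3 it was 131% and 128%. As a share of all Olfr counts, homo was 111% of WT within number 1 and 112% within numbers 2 and 3, and het was 105% and 117%.

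The spread of the single genes over the 9 libraries was set beside that of other Olfr genes, without regard to depth. The coefficient of variation was 21.4% for Olfr1507, Olfr1508 and Olfr1510, 20.7% for Olfr1511, 16.5% for Olfr1512 and 29.1% for Olfr1509. The median over the 677 Olfr genes with a mean count of at least 50 was 19.6%, with quartiles of 15.9% and 24.6%, so Olfr1509 alone lay above the upper quartile. Olfr1512, with a mean count of 49.2, is not in this set. Counting error is smaller for Olfr1507, with a mean of 1418 counts. Its edgeR coefficient of variation, without counting error, was 21.1%, above the 17% of the trend at its level. This value was below the trend for Olfr1508, Olfr1510, Olfr1511 and Olfr1512.

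Genes whose log2 CPM followed that of Olfr1507 most closely over the 9 libraries were sought among 15095 genes with a mean count of at least 50. Outside the Olfr genes they were Mki67 (Pearson r 0.976), a marker of dividing cells, Creg1 (r 0.975) and Pcdhac2 (r 0.968), a protocadherin. Among 676 other Olfr genes they were Olfr173 (r 0.976), Olfr293 (r 0.936) and Olfr1392 (r 0.885). These are the highest of many values over 9 shared libraries, among them WT replicate 3, and are given as a description. Within the run, r with Olfr1507 was 0.50 for Olfr1508, 0.11 for Olfr1509, 0.067 for Olfr1510, −0.87 for Olfr1511 and 0.21 for Olfr1512. The other genes of the run thus did not closely follow Olfr1507.

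No gene beside the run and no listed gene of receptor choice passed the test. The nearest protein-coding genes in the count table that are not receptors are Sall2, Mettl3, Tox4 and Rab2b, at 18.7 to 68.0 kb on the Olfr1513 side. On the Olfr1507 side they are Dad1, Abhd4, Oxa1l and Slc7a7, at 1739.7 to 1873.7 kb, beyond the T cell receptor alpha locus. Of these 8 genes 0 were called in homo against WT and 0 in het against WT. The enhancer factors Lhx2, Ldb1, Ebf1, Ebf2, Ebf3, Ebf4 and Emx2 gave 0 of 7 calls, with a median log2 fold change of 0.071 in homo against WT. Of 9 genes of receptor choice and feedback, such as the histone demethylase gene Kdm1a and the adenylyl cyclase gene Adcy3, 0 were called, with a median of 0.079.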

How the data were processed

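RNA was measured in 9 libraries of whole MOE, grouped by genotype and numbered as in the sample labels. According to the submitters' processing notes, reads were trimmed with Trimmomatic 0.36 and mapped to mm10 with HISAT2 2.1.0. The authors deposited raw counts per gene symbol, from featureCounts in Subread 1.6.2, and a signal of normalized counts, which they made with DESeq2 1.20.0 by dividing by 1 size factor per library. The libraries were strand-specific with polyA selection. The annotation, the strand option and the handling of reads that map to several genes are not given in the sources used here, so counts within close pairs of copies are uncertain.

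Differences between genotypes were fitted to the raw counts in edgeR 4.0.16 (R 4.3.3; quasi-likelihood, TMM normalization) with genotype as the only term and 1 spread for all 9 libraries. The filter kept the 19775 genes whose counts summed to at least 10. A call needed a Benjamini-Hochberg adjusted p under 0.05 together with a fold change over 1.5. All tests were two-sided. CPM used TMM effective library sizes, with 0.5 CPM added before logarithms for the likeness of patterns. Lengths, positions and coding sequences came from GENCODE M21, and coding sequences were aligned with Biopython 1.88. Exact tests used SciPy 1.17.1. The scripts were tested on simulated data. Alternatives comprised library totals, DESeq2 size factors, scaling to Olfr counts, no filter, the filterByExpr filter, the DESeq2 1.42.0 test, limma-voom (limma 3.58.1), a newer quasi-likelihood estimate, only the 2 genotypes compared, a replicate block, a batch term and leaving out each library.

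The members and lists were chosen with earlier results of these data known. The ratios within close pairs, the test of replicate number 1 for each gene and leaving out libraries from the ratios to Taar6 were chosen after seeing the data. The genes named are the 6 receptor genes, Olfr1513, Taar6, the 8 neighbours, the listed factors and the genes most like Olfr1507. Taar3, Taar7a and Taar9 were named after their values were seen.

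The labels do not say what the shared replicate numbers stand for. Pairing was therefore checked by correlating, over 16519 genes, how libraries deviated from the mean of their own genotype. Same-numbered WT and het libraries gave 0.672, 0.446 and 0.581. Same-numbered het and homo libraries gave 0.799, 0.35 and 0.193, and WT against homo libraries gave 0.529, 0.31 and −0.0784. Some libraries with different numbers correlated as much or more, with 0.568 for het 2 and homo 3, 0.518 for het 3 and homo 2 and 0.517 for WT 2 and homo 3, so numbers 2 and 3 are not specific between homo and the others. Every same-numbered pair of WT and het and of het and homo passed the limit of 0.1, but not every pair of WT and homo. For het and homo, libraries with different numbers correlated more for numbers 2 and 3, so passing this limit does not show a pairing of het with homo. The reported fits have no block, and the block was run as an alternative for all comparisons.

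Depth gives between 29 and 1700 counts for each of the 6 genes in each library. Counting error alone is larger for Olfr1512 than for Olfr1507.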

Additional observations from a re-analysis of the deposited data

How the results depend on the processing

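None of the 6 genes was called in any comparison under any alternative run, and the smallest adjusted p for any of them was 0.661. Of their 360 fold changes under alternatives, 342 kept their direction and 18 changed sign, none of them past a test. When each library was left out in turn, the log2 fold change in homo against het ran from −0.11 to 0.15 for Olfr1507, −0.14 to 0.14 for Olfr1508, −0.081 to 0.35 for Olfr1509, −0.095 to 0.19 for Olfr1511, −0.13 to 0.18 for Olfr1512 and −0.18 to 0.25 for Olfr1513. In homo against WT it ran from −0.24 to 0.081 for Olfr1510 and −0.25 to 0.14 for Olfr1511, and in het against WT from −0.29 to 0.10 for Olfr1511. Scaled to summed Olfr counts, homo against het was −0.010 for Olfr1507, −0.058 for Olfr1508 and −0.037 for Olfr1511. For Olfr1513 it was 0.039 in limma-voom, 0.0045 with the newer quasi-likelihood estimate, 0.025 with the replicate block and 0.032 with the batch term. The replicate block raised the count of all genes called from 1 to 3 in homo against het and from 1 to 3 for any genotype, lowered it from 4 to 3 in homo against WT, and changed no call of the 6 genes.

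Counts over all genes moved more. In homo against WT 4 genes were called, 6 in DESeq2, 3 with the replicate block, 1 in limma-voom and 1 with only the 2 genotypes, and between 1 and 4 without single libraries. The count was 1 without replicate 2 or 3 of any genotype and 2 without homo replicate 1. In homo against het, library totals gave 4 calls, scaling to Olfr counts 3, no filter 4, DESeq2 5, the newer estimate 2 and the batch term 3. For any genotype the counts were 3 scaled to Olfr counts, 6 in DESeq2, 2 with the newer estimate and 3 with the batch term. The cause was not tested.

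The summed level in homo as a percent of WT was 111.5 scaled to Olfr counts and 112.0 to 134.7 without single libraries. In het it was 112.4 scaled to Olfr counts, 112.0 within replicate number 1, 127.8 within numbers 2 and 3, and 108.4 to 130.4 without single libraries, the low ends being those without WT replicate 3. Within replicate number 1 the het sum was 97.5 CPM. With coding length Olfr1508 took rank 2 and Olfr1511 rank 4. Depth limits Olfr1512 most, with 29 counts in its lowest library, and 3 libraries per genotype leave intervals that reach folds of 1.38 to 2.22 for the 6 genes.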
